A study of Mus musculus
Rattus norvegicus and Mus musculus and Rattus norvegicus with 95 samples.

Results

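Rat embryonic stem cells (ESCs) were set against mouse ESCs, gene by gene, in bulk RNA sequencing of 2 lines per species. The mouse lines were F145 and F146 and the rat lines DA25 and DA53, which is 4 of the 95 samples of the series. All 4 were labelled as ESCs in the G0/G1 stage, each is 1 library of 1 line, and the labels used here give no treatment, medium, feeder layer, sex or passage. RNA was extracted with Trizol, made into libraries with a TruSeq kit and sequenced on a HiSeq 2000. The remaining bulk libraries, 4 mouse-rat allodiploid ESC lines (AdESCs), entered the fit only to help estimate the spread between libraries. A gene was a member of the comparison if its value was above 0 in all 4 ESC libraries and its mean over them was at least 1 FPKM (fragments scaled for transcript length and library size). This left 8469 of the 13926 mouse-rat homologues in the table.

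ESCs are held in self-renewal by a network around the transcription factors Oct4 (Pou5f1), Nanog and Sox2, and by signals from outside the cell. In mouse ESCs, LIF acting through STAT3 and active Wnt/β-catenin signalling favour self-renewal, whereas FGF acting through ERK favours the exit from it. Rat ESCs were derived after mouse ESCs and are known to depend on inhibitors of ERK and GSK3 signalling. ESCs of both species make much of their energy by glycolysis.

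In the rat lines 1213 genes rose and 912 fell at a Benjamini-Hochberg adjusted p of at most 0.05 (limma on log2(FPKM + 1)), that is 14.3% and 10.8% of the genes tested, 25.1% in all. The lines of the species did not overlap for 66.7% of genes. Among the 6997 genes at 1 FPKM or more in all 4 libraries the calls were 13.4% rises and 6.37% falls, 19.7% in all. The median difference over all genes, rat minus mouse, was 0.12 on this log2 scale. With upper-quartile scaling of the libraries the median was -0.16, and 855 genes rose and 1294 fell, so that 39.8% of calls were rises in place of 57.1%. Leaving out each of the 4 libraries in turn, 376 of the rises (4.44% of all genes) and 274 of the falls (3.24%) passed in every case. These are called robust below, a grouping made after the data were seen. Each such fit with 1 line left in a species takes that line to vary as the other groups do. The replicates are separate lines, with nothing said of culture or day, so the p-values reflect the spread among these libraries, which may be technical in part. With 1 genome and gene model per species a difference of expression and one of annotation cannot be told apart. In bulk RNA, fewer cells of a type and less RNA per cell cannot be told apart either.

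The lines within a species were not equally alike. The median absolute log2 difference over genes was 0.471 between F145 and F146 and 0.257 between DA25 and DA53, against 0.678 to 0.734 between a rat and a mouse line. F145 held much more RNA of fibroblast and feeder genes than any other library: over 29 markers in the table the summed level was 5080 FPKM in F145, 894 in F146, 750 in DA25 and 1020 in DA53. Of these markers 11 were listed at 0 in both rat lines, including the collagen genes Col1a2 and Col3a1 and the surface marker Thy1, and 9 of the 16 tested fell in rat. The collagen gene Col1a1 was at 641 and 89.7 FPKM in F145 and F146 and at 0.072 and 0.044 FPKM in DA25 and DA53. Vim, the mesenchymal filament vimentin, was at 553 and 78.0 FPKM against 0.471 and 0.441 FPKM. Both mouse lines were thus above both rat lines, and the log2 difference was -7.83 for Col1a1 and -7.17 for Vim with F145, and -6.42 and -5.76 without it. In the rat lines most of the summed level came from Fn1 (324 and 674 FPKM) and Timp1 (335 and 277 FPKM).

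The label of the cells was checked against the core factors. Pou5f1 was at 648 and 435 FPKM in F145 and F146 and at 802 and 924 FPKM in DA25 and DA53. The values of Nanog were 324 and 585 FPKM in mouse and 271 and 217 FPKM in rat. For Sox2 they were 57.8 and 64.0 FPKM in mouse and 66.7 and 46.5 FPKM in rat. All 3 were well expressed in every line. The species did not overlap for Pou5f1 and Nanog, as for 66.7% of all genes tested, but none of the 3 passed (adjusted p = 0.0899, 0.102 and 0.904).

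**Figure D1:**
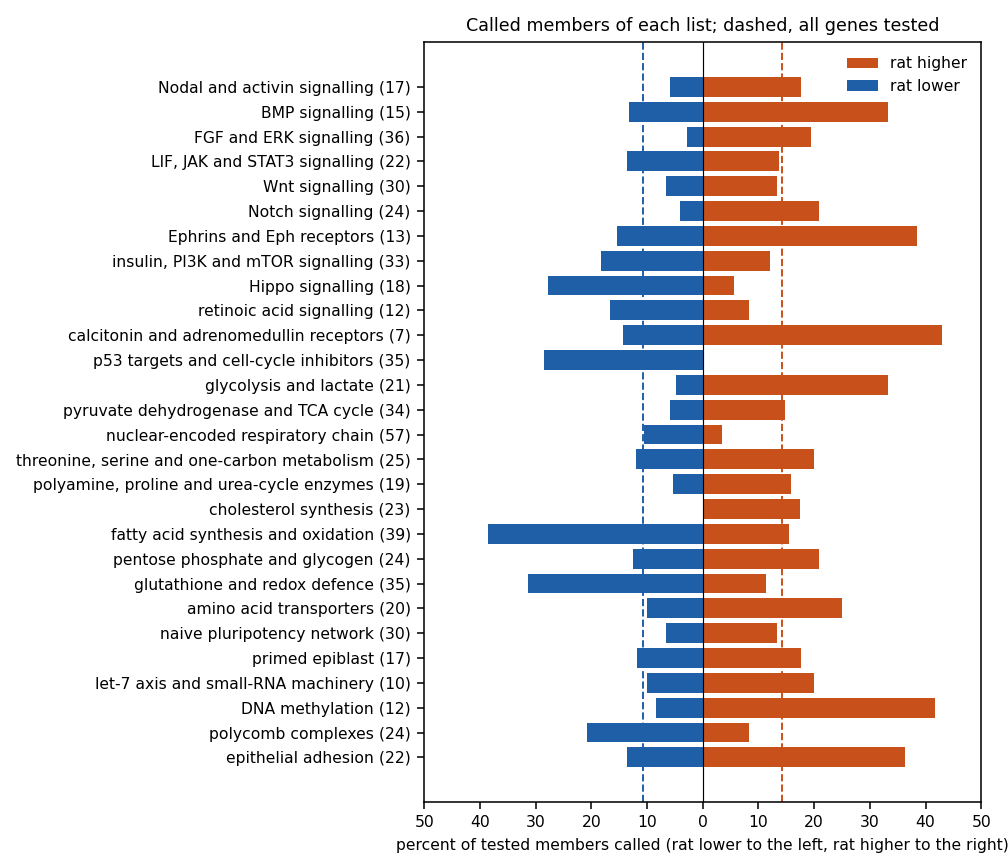
Share of the tested members of each gene list that passed the test, in percent, to the right where rat was higher and to the left where rat was lower; the number tested is in parentheses. The dashed lines mark all genes tested, 14.3% higher and 10.8% lower. The list of p53 targets has calls to the left alone, and that of fatty acid synthesis and oxidation has its longer bar there.

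Among signalling genes as a whole, 41 of 262 tested rose and 36 fell, 15.6% and 13.7%, with a median difference of 0.11, and -0.17 with upper-quartile scaling, close to that of all genes in both. The larger differences lay in single ligands, receptors and targets. Lefty1, a secreted inhibitor of Nodal and at the same time a Nodal target (mouse gene on chromosome 1, 180935022 to 180938401 in GRCm38), was at 2.39 and 2.45 FPKM in the mouse lines and at 291 and 335 FPKM in the rat lines. The lines of each species lay close together and the rat mean was 130-fold higher, a robust log2 difference of 6.52 ± 0.99 (SE, adjusted p = 0.00146). Its paralogue Lefty2 lay the other way, at 21.4 and 19.6 FPKM in mouse and 2.75 and 4.89 FPKM in rat. The species did not overlap, as for 66.7% of all genes tested, and Lefty2 fell short of the threshold (adjusted p = 0.192). Reads of the near-identical Lefty pair may have been divided between them in counting, so each value is uncertain.

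The ligand Nodal was at 28.1 and 26.5 FPKM in mouse and 45.4 and 45.6 FPKM in rat, and Gdf3, a ligand of the same receptors, at 41.0 and 39.5 against 105 and 103 FPKM. Both ligands were higher in both rat lines and neither passed (adjusted p = 0.425 and 0.0945). The lines within a species lay close together for both, and the spread in this fit also took in the 4 AdESC lines. The receptor gene Acvr1b was at 5.31 and 5.66 FPKM against 16.5 and 12.7 FPKM (adjusted p = 0.109). Of the intracellular mediators, Smad3 was at 8.66 and 5.91 FPKM in mouse and 0.393 and 0.275 FPKM in rat, a robust log2 difference of -2.62 ± 0.43. Smad2, which carries the same signal, was at 5.83 and 7.15 against 15.6 and 15.3 FPKM and rose, but not without F145, DA25 or DA53 (adjusted p = 0.0981, 0.137 and 0.141) nor with upper-quartile scaling (adjusted p = 0.0542). Furin, the convertase that processes Nodal, rose from 14.8 and 5.16 to 48.1 and 33.9 FPKM, and not without F146, DA25 or DA53 (adjusted p = 0.115, 0.119 and 0.0636). Over the Nodal and activin list, 3 of 17 tested members rose, 1 fell, and the median was 0.72. With the 4 rat and mouse libraries alone 5 rose and 2 fell.

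In the BMP list 5 of 15 members rose and 2 fell, with a median of 0.97, and with upper-quartile scaling 2 rose and 3 fell. The ligand gene Bmp4 was at 6.12 and 0.664 FPKM in F145 and F146 and at 67.7 and 67.2 FPKM in the rat lines. The rat lines agreed closely while the mouse lines differed between themselves, and the log2 difference was 4.31 ± 0.85 (adjusted p = 0.00525), robust. Bmpr1a, its type I receptor, was at 12.9 and 13.3 against 39.0 and 45.5 FPKM and rose, but with any 1 of the 4 libraries left out it did not pass (adjusted p 0.111 to 0.181). Smad1, the mediator, rose from 4.03 and 7.04 to 17.0 and 12.8 FPKM, lost without F145, DA25 or DA53 (adjusted p = 0.17, 0.199 and 0.105). Twsg1, a secreted BMP-binding protein, fell from 22.7 and 20.9 to 5.69 and 7.78 FPKM, lost without DA25 (adjusted p = 0.0726). Id1, a direct BMP target, was at 66.9 and 0.617 FPKM in the mouse lines and 29.5 and 30.9 FPKM in the rat lines. Both rat values thus lay between the mouse ones, and Id1 did not pass (adjusted p = 0.417).

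The FGF and ERK list had 7 rises and 1 fall among 36 tested, with a median of 0.27. Fgf15, an FGF ligand of the endocrine subfamily, was at 0.0735 and 0.704 FPKM in mouse and 9.59 and 21.3 FPKM in rat, a robust rise of 3.51 ± 0.55. Fgf4, the main autocrine FGF of ESCs, was at 33.2 and 58.6 FPKM against 25.7 and 13.1 FPKM and did not pass (adjusted p = 0.0919). Within the cascade, the kinase gene Araf (X-linked in mouse) was at 18.6 and 16.8 FPKM in mouse and 154.3 and 146.3 FPKM in rat. Its species were far apart with close lines, and the rise of 3.02 ± 0.39 was robust (adjusted p = 0.000621). Mapk3, which encodes ERK1 and is named after its values were seen, rose from 24.9 and 25.0 to 86.4 and 73.3 FPKM (1.64 ± 0.31), also robust.

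The transcriptional targets of ERK differed widely between the mouse lines themselves. This group of 14 genes was chosen after its values were seen and is described without a test: all 14 were higher in F145 than in F146, 12 of them by 3-fold or more, and for 9 both rat lines lay between the mouse lines. The immediate early gene Egr1 was at 402 FPKM in F145, 0.55 in F146, 0 in DA25 and 0.0508 in DA53. Spry4, a feedback inhibitor, was at 85.4, 0.36, 5.3 and 6.58 FPKM in the same order. For Dusp6, the ERK phosphatase, the values were 62.0, 0.908, 1.88 and 3.18 FPKM. F145 alone was high for Egr1, Spry4 and Dusp6, whereas Spry2 (57.6, 7.78, 49.5 and 60.8 FPKM) and Etv4 (17.8, 13.2, 17.7 and 64.3 FPKM) were as high or higher in a rat line. F145 is also the library with the high fibroblast markers; the part of those cells in the ERK target levels was not tested. Dusp1, another phosphatase of MAP kinases, was the single fall of the list, from 124 and 13.2 to 1.58 and 1.17 FPKM, and its log2 difference of -4.16 ± 0.78 became -2.59 without F145.

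In the LIF, JAK and STAT3 list 3 of 22 members rose and 3 fell, with a median of -0.46. With upper-quartile scaling 2 rose and 6 fell (median -0.66), and with quantile normalization 3 rose and 2 fell (median -0.25). Lifr, the ligand-specific chain of the LIF receptor, was at 8.29 and 10.3 FPKM in mouse and 91.5 and 112 FPKM in rat. The rat mean was 10.9-fold higher and the lines of a species were alike, with a robust rise of 3.32 ± 0.55 (adjusted p = 0.00221). The shared receptor chain Il6st was at 29.0 and 18.9 against 39.6 and 39.0 FPKM (adjusted p = 0.277). Lif itself was at 28.1 FPKM in F145, 4.94 in F146, 2.98 in DA25 and 2.24 in DA53 (adjusted p = 0.0507). Stat3 was at 57.1 and 32.3 FPKM in mouse and at 43.1 and 43.8 FPKM in rat, between the mouse values (adjusted p = 0.985). Socs3, a target and inhibitor of STAT3, was at 52.1 and 16.2 FPKM against 78.0 and 78.2 FPKM (adjusted p = 0.242). The kinases moved apart: Jak2 rose and Jak1 fell, and neither call was robust (largest adjusted p with a library left out 0.294 and 0.219, both without DA53). Bcl3 rose from 21.4 and 9.17 to 58.8 and 78.9 FPKM, lost without DA53 (adjusted p = 0.0683).

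**Figure D2:**
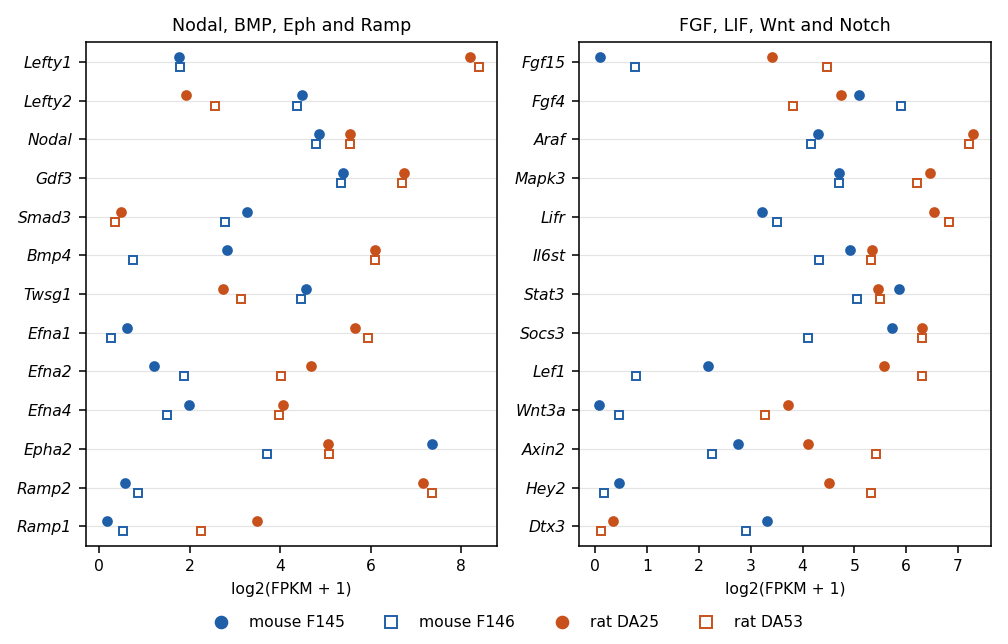
Level of signalling genes in each library on a log2(FPKM + 1) axis; circles are F145 and DA25, open squares F146 and DA53, blue mouse and orange rat. Lefty1, Efna1, Ramp2, Lifr and Araf show the rat lines together and far to the right of the mouse lines, while Lefty2, Smad3, Twsg1 and Dtx3 show the reverse and Stat3 and Epha2 overlap.

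In the Wnt list 4 of 30 members rose and 2 fell, with a median of 0.25, and -0.04 with upper-quartile scaling. The rises were a ligand, the targets Lef1 and Axin2, and Gsk3a, a kinase of the complex that degrades β-catenin. The falls, neither robust, were Dkk3 (4.03 and 5.82 against 0.37 and 0.264 FPKM) and Sfrp2 (4.26 and 1.36 against 0.0957 and 0.0195 FPKM). Lef1, a DNA-binding partner of β-catenin that is itself induced by Wnt, was at 3.51 and 0.722 FPKM in mouse and 46.2 and 77.6 FPKM in rat (robust rise of 4.45 ± 0.59). Wnt3a was at 0.0481 and 0.372 FPKM in mouse and 12.1 and 8.64 FPKM in rat (robust rise of 3.23 ± 0.45). The feedback gene Axin2 rose from 5.72 and 3.79 to 16.1 and 41.7 FPKM, lost without F146 or DA53 (adjusted p = 0.055 and 0.11). Gsk3a rose from 24.8 and 18.9 to 54.3 and 52.3 FPKM, lost without DA25 or DA53 (adjusted p = 0.068 and 0.0644). Lef1, Wnt3a and Axin2 did not overlap between species, as was so for 66.7% of all genes tested, and DA53 held the highest Lef1 and Axin2. Cdx2, a caudal-type target of Wnt and a trophoblast factor, was listed at 0 in F146 and so was not tested, at 0.0812 FPKM in F145, 10.7 FPKM in DA25 and 82.1 FPKM in DA53. Other list members, named after their values were seen, were not higher in both rat lines. Notum was at 22.5 and 4.42 against 0 and 0.11 FPKM and was not tested. Sp5 was at 3.51 and 0.539 against 0.115 and 8.96 FPKM (adjusted p = 0.803). Ctnnb1, which encodes β-catenin, was at 218 and 195 FPKM against 205 and 286 FPKM and did not pass (adjusted p = 0.576).

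The Notch list had 5 rises and 1 fall among 24 tested, with a median of 0.23, and -0.06 with upper-quartile scaling. Hey2, a repressor of the Hes family induced by Notch, was at 0.381 and 0.134 FPKM in mouse and 21.8 and 38.9 FPKM in rat (robust rise of 4.59 ± 0.42). Dtx3, a Deltex ubiquitin ligase, was at 9.00 and 6.51 FPKM against 0.266 and 0.0812 FPKM (robust log2 difference of -2.89 ± 0.41). The fringe genes Lfng and Mfng, which glycosylate Notch receptors, rose as well. Lfng was lost without DA25 (adjusted p = 0.0623) and Mfng without F145, DA25 or DA53 (adjusted p = 0.0575, 0.0586 and 0.0539). The receptor Notch1 was at 22.6 FPKM in F145 and between 5.85 and 6.17 FPKM in the other lines (adjusted p = 0.227).

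Eph receptors and their ephrin ligands signal between touching cells. Here 5 of 13 tested members rose and 2 fell, with a median of 0.99. Efna1 (mouse chromosome 3, 89271730 to 89280951) was at 0.522 and 0.204 FPKM in mouse and 49.4 and 60.8 FPKM in rat, a robust rise of 5.37 ± 0.51 (adjusted p = 0.000136). Efna2 was at 1.33 and 2.68 FPKM against 24.8 and 15.2 FPKM, and Efna4 at 2.94 and 1.83 against 15.7 and 14.8 FPKM, both robust (2.80 ± 0.53 and 2.28 ± 0.45). These A-type ligands were thus higher in both rat lines. Of the B-type ligands, Efnb2 (5.35 and 2.31 against 0.112 and 0.412 FPKM) and Efnb3 (1.56 and 4.32 against 0.369 and 0.282 FPKM) fell, and Efnb1, at 1.78 and 1.19 against 2.29 and 6.34 FPKM, was higher in both rat lines without passing (adjusted p = 0.116). Neither B-type call held with DA25 or DA53 left out (adjusted p = 0.134 and 0.0866 for Efnb2, 0.0912 and 0.118 for Efnb3). Among the receptors, Epha2 was at 164 FPKM in F145, 12.0 in F146, 32.4 in DA25 and 33.0 in DA53 and did not pass (adjusted p = 0.737), and Epha4 missed the threshold (adjusted p = 0.053).

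Ramp2 and Ramp1 encode membrane partners that give calcitonin-family receptors their ligand preference. Ramp2 (mouse chromosome 11, 101246334 to 101248250) was at 0.478 and 0.822 FPKM in mouse and 142 and 162 FPKM in rat, a robust rise of 6.54 ± 0.35 (adjusted p = 3.84e-06). Ramp1 was at 0.118 and 0.439 against 10.3 and 3.75 FPKM, robust as well. Their main receptor gene Calcrl was near 0 in every line (0.239, 0.0391, 0 and 0.0155 FPKM for F145, F146, DA25 and DA53). The ligand gene Adm2 rose from 1.15 and 2.94 to 6.40 and 11.0 FPKM, lost without F145, DA25 or DA53 (adjusted p = 0.124, 0.0512 and 0.174).

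In the insulin, PI3K and mTOR list 4 of 33 members rose and 6 fell, none robust, with a median of 0.14, and -0.18 with upper-quartile scaling. Without F145 the balance turned towards rises, and without DA25 or DA53 far fewer members passed in either direction. Igf2, a fetal growth factor and imprinted gene, was at 89.0 and 11.6 FPKM in mouse and 1.79 and 0.916 FPKM in rat, and the log2 difference of -3.86 became -2.44 without F145. It was lost without DA53 (adjusted p = 0.0522). Its signalling receptor Igf1r rose from 6.11 and 2.48 to 13.7 and 12.6 FPKM, lost without F146, DA25 or DA53 (adjusted p = 0.195, 0.159 and 0.144). In the Hippo list 5 of 18 members fell and 1 rose, with a median of -0.49. The falls, none robust, included Frmd6 and the tumour suppressor Nf2. Fewer members of the Hippo list fell without F145, and likewise without DA25 or DA53. The retinoic acid list had 2 falls and 1 rise of 12, with a median of -0.56, and 0 falls and 1 rise without F145, DA25 or DA53.

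In the list of p53 targets and cell-cycle inhibitors 0 of 35 tested members rose and 10 fell, with a median of -0.50. Fewer members fell without F145, and likewise without DA25 or DA53. Cdkn1a, the inhibitor p21 and a p53 target (mouse chromosome 17, 29090979 to 29100722), was at 202 and 91.0 FPKM in mouse and 32.6 and 32.4 FPKM in rat. The rat lines were alike and below both mouse lines, a log2 difference of -2.03 ± 0.57 (adjusted p = 0.0261) that was lost without F145, DA25 or DA53 (adjusted p = 0.163, 0.102 and 0.113). Cdkn2a, the locus of the inhibitor p16, was at 26.9 and 38.6 FPKM against 2.95 and 6.33 FPKM (log2 difference of -2.63 ± 0.52, adjusted p = 0.0555 without DA25). The robust falls were the death receptor Tnfrsf10b (25.4 and 16.1 against 3.16 and 0.828 FPKM) and, named after their values were seen, the inhibitor Cdkn2b (6.32 and 3.33 against 0.351 and 0.429 FPKM) and the polymerase Polk (6.61 and 7.91 against 0.871 and 1.05 FPKM). Trp53 was at 177 and 107 FPKM against 85.9 and 147 FPKM and did not pass (adjusted p = 0.751). Bax, a p53 target that promotes cell death, was at 135 and 154 FPKM against 127 and 133 FPKM (adjusted p = 0.717). The fibroblast markers were high in the line with the highest Cdkn1a, F145, and their part in these falls was not tested.

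Among metabolic genes as a whole, 48 of 301 tested rose and 45 fell, 15.9% and 15.0%, with a median of 0.19, and -0.11 with upper-quartile scaling. Glycolytic genes were mostly higher in rat and genes of fatty acid metabolism mostly lower. In the glycolysis and lactate list 7 of 21 tested members rose, 1 fell, and the median was 0.84. Slc2a1, the glucose transporter GLUT1, was at 142 and 92.0 FPKM in mouse and 524 and 429 FPKM in rat (robust rise of 2.05 ± 0.35, adjusted p = 0.00263). The other main transporter, Slc2a3 (GLUT3), was at 360 and 604 FPKM in mouse and listed at 0 in both rat lines, so it was not tested.

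Pgk1, phosphoglycerate kinase (mouse chromosome X, 106187100 to 106203699), was at 363 and 444 FPKM in mouse and 2640 and 2050 FPKM in rat (robust rise of 2.53 ± 0.32). Pfkl, the liver type of phosphofructokinase, was at 52.0 and 31.7 against 130 and 157 FPKM, and Pfkfb3, which makes its activator, at 3.17 and 3.16 against 22.4 and 29.6 FPKM. Both calls were robust, and all these genes put the rat lines above the mouse lines without overlap. Over all genes tested the species did not overlap, in either direction, for 66.7%. The other rises, named after their values were seen, were Ldha (597 and 541 against 1420 and 1620 FPKM), Pkm (1280 and 753 against 2470 and 3240 FPKM) and Bpgm. They were not robust: Ldha was lost without DA53 (adjusted p = 0.0599), Pkm without F146, DA25 or DA53 (adjusted p = 0.102, 0.0513 and 0.119) and Bpgm without F145, DA25 or DA53 (adjusted p = 0.11, 0.119 and 0.141). Aldoa, at 1080 and 1030 FPKM in mouse and 1500 and 1730 FPKM in rat, did not pass (adjusted p = 0.176).

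Pyruvate either enters the mitochondrion through pyruvate dehydrogenase or leaves as lactate. The dehydrogenase subunit Pdha1 (X-linked) was at 85.1 and 77.6 FPKM in mouse and 282 and 517 FPKM in rat. Of the kinases that switch the enzyme off, Pdk1 was at 4.90 and 9.35 against 37.5 and 34.8 FPKM. Pdk3 (X-linked) was at 8.73 and 16.3 against 43.7 and 63.6 FPKM. The rises of Pdha1, Pdk1 and Pdk3 were robust, at 2.22 ± 0.32, 2.25 ± 0.46 and 2.05 ± 0.33. The related kinase Pdk2 was at 1.76 and 1.78 FPKM against 0.926 and 1.13 FPKM and did not pass (adjusted p = 0.5), and Pdk4, at 2.36 and 0.774 against 0.457 and 0.373 FPKM, was under the filter. The partner subunit Pdhb was at 88.0 and 76.5 FPKM against 43.4 and 42.0 FPKM and did not pass (adjusted p = 0.0774). Idh1, the cytosolic isocitrate dehydrogenase, was at 45.5 and 85.3 FPKM against 9.19 and 8.15 FPKM, a robust log2 difference of -2.71 ± 0.34. In the whole list of pyruvate dehydrogenase and the TCA cycle 5 of 34 rose and 2 fell, with a median of 0.34. With upper-quartile scaling 3 rose and 4 fell, with a median of 0.00.

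Of 57 nuclear-encoded subunits of the respiratory chain 2 rose and 6 fell, with a median of 0.01, and -0.22 with quantile normalization. With upper-quartile scaling 1 rose and 15 fell, and the median was -0.29. Cox7b, a small subunit of complex IV, was at 203 and 200 FPKM in mouse and 697 and 711 FPKM in rat (robust rise of 1.80 ± 0.24). Uqcr11 of complex III was at 237 and 251 against 71.9 and 42.0 FPKM, and Ndufab1 of complex I at 65.9 and 137 against 23.2 and 28.5 FPKM. Both falls were robust, at -2.13 ± 0.34 and -1.84 ± 0.35. Both rises of the list, Cox7b and Ndufb11, are X-linked, and Ndufb11 was lost without F145, DA25 or DA53 (adjusted p = 0.21, 0.11 and 0.233).

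**Figure D3:**
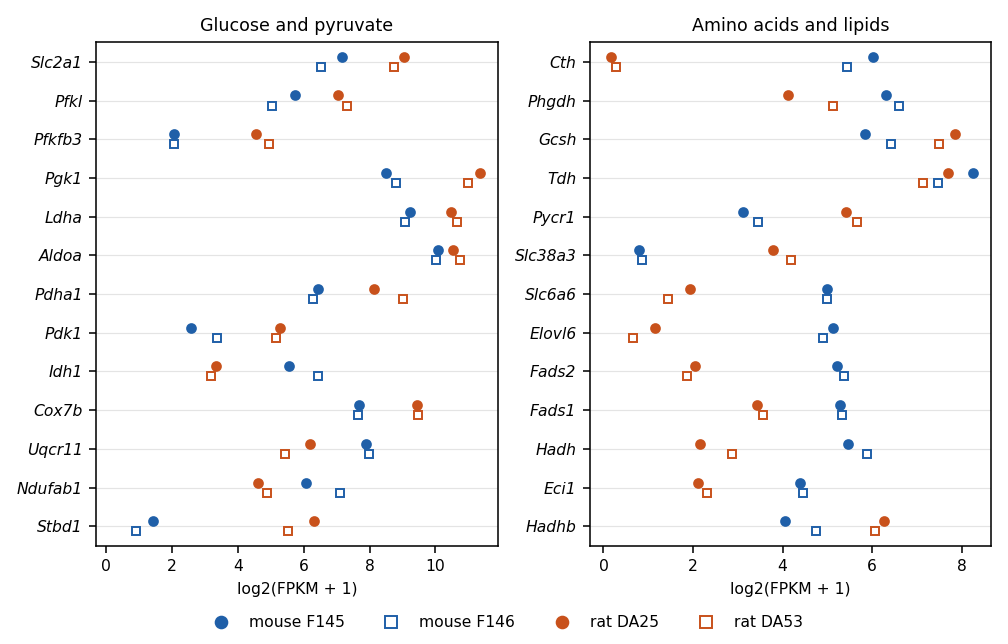
Level of metabolic genes in each library on a log2(FPKM + 1) axis, with the symbols of the other dot plots (circles F145 and DA25, open squares F146 and DA53, blue mouse, orange rat). Glycolytic genes down to Pdk1 lie to the right in rat apart from the closer Aldoa, and the lipid genes from Elovl6 to Eci1 lie to the left in rat, with Hadhb to the right.

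In the list of fatty acid synthesis and oxidation 15 of 39 tested members fell (38.5%), 6 rose, and the median was -0.90. The falls took in both making and breaking of fatty acids. Elovl6, an elongase, was at 33.9 and 28.9 FPKM in mouse and 1.23 and 0.58 FPKM in rat. Fads2, a desaturase of polyunsaturated fatty acids, was at 36.2 and 40.4 against 3.12 and 2.64 FPKM. Both falls were robust, at -4.10 ± 0.38 and -3.34 ± 0.30, as was that of the second desaturase Fads1 (38.0 and 39.4 against 9.74 and 10.9 FPKM), named after its values were seen.

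In mitochondrial β-oxidation, Hadh, the short-chain hydroxyacyl-CoA dehydrogenase, was at 43.1 and 58.5 FPKM against 3.43 and 6.34 FPKM (robust log2 difference of -3.17 ± 0.33). Named after their values were seen, the isomerase Eci1 (20.0 and 20.8 against 3.32 and 3.99 FPKM) and the medium-chain dehydrogenase Acadm (31.5 and 54.0 against 12.5 and 11.3 FPKM) also fell robustly. The trifunctional protein moved the other way: its subunit Hadhb was at 15.7 and 26.0 FPKM in mouse and 76.2 and 66.4 FPKM in rat (robust rise of 1.76 ± 0.30). Its partner Hadha was at 29.8 and 33.4 against 78.2 and 77.7 FPKM, lost without DA53 (adjusted p = 0.0513). The stearoyl-CoA desaturase Scd2 was at 120 and 132 FPKM against 650 and 632 FPKM. It rose by 2.34 ± 0.58 (adjusted p = 0.0154), and with any 1 of the 4 libraries left out it did not pass (adjusted p 0.054 to 0.0736). With upper-quartile scaling 6 members of the list rose and 18 fell, and with quantile normalization 5 rose and 13 fell. Fewer members passed with each library left out in turn, and the fewest where a rat line was left out.

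Cholesterol synthesis had 4 rises and 0 falls among 23 tested, with a median of 0.43. Cyp51, the lanosterol demethylase, was at 34.4 and 39.0 FPKM in mouse and 114 and 121 FPKM in rat, the 1 robust call (rise of 1.65 ± 0.27).

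In the list of threonine, serine and one-carbon metabolism 5 of 25 rose and 3 fell, with a median of -0.01. With upper-quartile scaling 3 rose and 5 fell, without F145 2 rose and 4 fell, and without DA25 1 rose and 2 fell. Cth, cystathionine γ-lyase, which makes cysteine from cystathionine (mouse chromosome 3, 157894248 to 157925081), was at 63.9 and 42.1 FPKM in mouse and 0.123 and 0.207 FPKM in rat. It had the largest fall of the metabolic lists, a log2 difference of -5.51 ± 0.38 (adjusted p = 1.96e-05), robust. Phgdh, the first enzyme of serine synthesis, fell from 78.0 and 95.5 to 16.3 and 33.9 FPKM, and Gcsh of the glycine cleavage system rose from 56.8 and 84.4 to 232 and 180 FPKM, both robust. Tdh, threonine dehydrogenase, on which mouse ESCs are known to depend, was at 305 and 177 FPKM against 208 and 140 FPKM, overlapping between species (adjusted p = 0.402).

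Proline is both made and broken down by enzymes that were higher in rat. Pycr1, which completes proline synthesis, was at 7.67 and 9.94 FPKM against 41.9 and 49.8 FPKM, and Prodh, which begins its breakdown, at 3.96 and 2.98 against 25.7 and 16.3 FPKM. Both rises were robust, at 2.26 ± 0.31 and 2.27 ± 0.42, among 3 rises and 1 fall of 19 members. The polyamine, proline and urea-cycle list as a whole had a median of -0.07, and with upper-quartile scaling 2 rises and 4 falls.

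Amino acid transporters had 5 rises and 2 falls of 20, with a median of 0.80. Slc38a3, a glutamine transporter, was at 0.744 and 0.802 FPKM in mouse and 12.8 and 17.3 FPKM in rat (robust rise of 3.17 ± 0.36). Slc1a1, a glutamate carrier, was at 0.876 and 15.5 against 91.6 and 60.6 FPKM, and its rise of 3.76 ± 0.75 became 2.19 without F145. Slc6a6, the taurine transporter, was at 31.1 and 30.8 against 2.80 and 1.73 FPKM (robust log2 difference of -3.31 ± 0.36).

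In the pentose phosphate and glycogen list 5 of 24 rose and 3 fell, with a median of 0.38. Stbd1, which anchors glycogen to membranes, was at 1.68 and 0.87 FPKM in mouse and 78.1 and 45.2 FPKM in rat (robust rise of 4.75 ± 0.45). Pgls, the lactonase of the pentose phosphate path, fell from 52.1 and 103 to 10.1 and 12.6 FPKM (log2 difference of -2.59 ± 0.35, robust). G6pdx, the X-linked first enzyme of that path, rose from 28.2 and 18.6 to 81.6 and 71.1 FPKM, lost without DA25 (adjusted p = 0.0536).

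Of 35 tested genes of glutathione and redox defence 11 fell and 4 rose. Their median was 0.00, and -0.30 and -0.14 with upper-quartile scaling and quantile normalization. Fewer members of the list passed with each library left out in turn. Gstm1, a glutathione transferase with close paralogues, was at 68.6 and 29.9 FPKM in mouse and 3.54 and 1.03 FPKM in rat (robust log2 difference of -3.93 ± 0.47). Gsto1 fell from 91.4 and 58.6 to 16.0 and 14.5 FPKM, and the mitochondrial superoxide dismutase Sod2, named after its values were seen, from 57.8 and 52.0 to 18.2 and 17.1 FPKM, both robust. Gpx2, a glutathione peroxidase outside the list and among the 12 largest rises, was at 21.3 and 41.4 FPKM against 436 and 625 FPKM (4.09 ± 0.36, robust). Car6, a secreted carbonic anhydrase, was at 0.937 and 0.428 FPKM in mouse and 192 and 199 FPKM in rat, a robust rise of 6.88 ± 0.35 (adjusted p = 3.21e-06).

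In the pluripotency class 22 of 110 tested members rose and 14 fell, 20.0% and 12.7%, with a median of 0.51. Within the naive network 4 of 30 rose and 2 fell, with a median of 0.31 and 0.01 with upper-quartile scaling. The naive factors Klf4 (68.1 and 50.1 against 51.4 and 79.3 FPKM) and Esrrb (176 and 111 against 99.5 and 108 FPKM) did not pass (adjusted p = 0.844 and 0.349), nor did Klf2 and Tfcp2l1 (adjusted p = 0.218 and 0.669). Fbxo15, an F-box gene used as a marker of ESCs, was at 123 and 346 FPKM in mouse and 2.18 and 1.65 FPKM in rat. This was the largest fall among genes at 1 FPKM or more in all 4 libraries, a log2 difference of -6.16 ± 0.48 (adjusted p = 5.18e-05), robust.

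Nr5a2, a nuclear receptor that can drive Oct4, was at 27.1 and 21.6 FPKM against 0.6 and 1.55 FPKM (robust log2 difference of -3.64 ± 0.68). Nr0b1, another nuclear receptor of the network (X-linked), was at 76.9 and 22.0 FPKM in mouse, 0.0909 FPKM in DA25 and listed at 0 in DA53, so it was not tested. Gbx2, a homeobox target of STAT3, rose from 1.99 and 1.20 to 21.5 and 30.6 FPKM, and Zscan10, a partner of Oct4 and Sox2, from 43.5 and 20.6 to 123 and 130 FPKM, both robust. Lin28a, which blocks let-7 maturation, was at 11.9 and 10.0 FPKM against 40.1 and 89.7 FPKM and rose, lost without F145, F146 or DA53 (adjusted p = 0.0611, 0.0763 and 0.147). Hmga2, a let-7 target, was at 6.63 and 5.71 against 0.43 and 0.263 FPKM (robust log2 difference of -2.41 ± 0.37).

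Of the genes of the primed epiblast, the later pluripotent state, 3 of 17 rose and 2 fell, with a median of 0.69. The rises were Lef1 and Fgf15, given above, and Cldn6, a claudin (3.82 and 4.06 against 22.1 and 21.9 FPKM), all robust. Otx2, a factor of the early primed state, was at 1.65 and 7.74 FPKM in mouse and listed at 0 in both rat lines, and Fgf5 was at most 0.136 FPKM in any line.

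The DNA methylation list had 5 rises and 1 fall of 12, with a median of 1.13. With upper-quartile scaling 4 rose and 1 fell, and fewer members rose without F146, DA25 or DA53. Hells (47.1 and 83.7 FPKM in mouse) and Zbtb33 (2.17 and 3.57 FPKM) were listed at 0 in both rat lines and not tested. Dnmt3l, the cofactor of the de novo methyltransferases (mouse chromosome 10, 78042287 to 78063622), was at 49.3 and 39.7 FPKM in mouse and 597 and 365 FPKM in rat, a robust rise of 3.37 ± 0.35 (adjusted p = 0.000197). The enzyme gene Dnmt3a rose from 4.29 and 3.30 to 29.6 and 12.0 FPKM, lost without F146 or DA25 (adjusted p = 0.0626 and 0.129). Dnmt3b was at 24.3 and 7.17 against 41.1 and 48.9 FPKM and missed the threshold (adjusted p = 0.0648), and Dnmt1, the maintenance enzyme, did not pass (adjusted p = 0.381). Zfp57, which protects imprints, fell from 253 and 123 to 63.2 and 45.2 FPKM, lost without F145, DA25 or DA53 (adjusted p = 0.157, 0.0661 and 0.154).

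Polycomb complexes, which silence developmental genes, had 5 falls and 2 rises of 24, with a median of 0.31. Phc1, a subunit of the PRC1 complex, was at 108 and 45.1 FPKM against 9.13 and 9.61 FPKM, and Eed of PRC2 at 63.3 and 73.4 against 16.4 and 17.5 FPKM. Both falls were robust, at -2.77 ± 0.44 and -1.94 ± 0.31. The methyltransferase genes of PRC2 went opposite ways: Ezh2 fell from 52.0 and 77.7 to 23.1 and 32.4 FPKM and Ezh1 rose from 4.46 and 11.0 to 49.6 and 38.4 FPKM. Ezh2 was lost without F146, DA25 or DA53 (adjusted p = 0.113, 0.168 and 0.0613) and Ezh1 without F145 or DA25 (adjusted p = 0.0742 and 0.0724).

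Epithelial adhesion genes, which ESCs share with the epiblast, had 8 rises and 3 falls of 22, with a median of 0.83. Epcam, a surface adhesion molecule, was at 24.7 and 37.5 FPKM in mouse and 199 and 164 FPKM in rat (robust rise of 2.53 ± 0.30). Esrp2, an epithelial splicing factor, was at 2.26 and 1.14 against 25.0 and 22.7 FPKM (robust rise of 3.23 ± 0.37). Cdh1, E-cadherin, was at 93.2 and 172 FPKM in mouse and 144 and 132 FPKM in rat, between the mouse values (adjusted p = 0.813). The fibroblast markers ran opposite to this list in F145, and their part in the result was not tested. Fewer members of the list passed without F145, and likewise without DA25 or DA53.

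**Figure D4:**
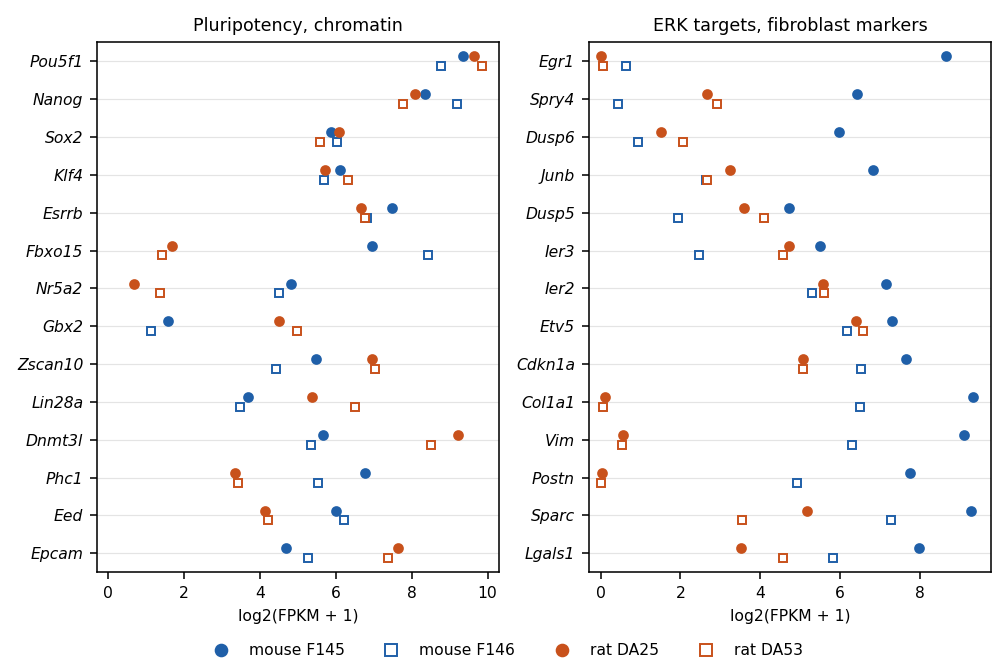
Level of pluripotency, chromatin and adhesion genes (left) and of ERK targets, Cdkn1a and fibroblast markers (right) in each library on a log2(FPKM + 1) axis, symbols as in the other dot plots. On the left the core factors lie close together while Fbxo15 and Nr5a2 lie to the left in rat and Dnmt3l and Epcam to the right; on the right F145 has the highest value for each gene shown.

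Outside the fibroblast list, markers of other cell types were mostly low, with exceptions. Apoe, of the extraembryonic endoderm list, was at 872 and 340 FPKM in mouse and 909 and 909 FPKM in rat (adjusted p = 0.346). Of the germ cell list, Kit was at 30.8 and 54.9 FPKM in mouse and 21.5 and 15.4 FPKM in rat. Tex19.1 was at 57.5 and 111 against 42.7 and 55.3 FPKM, and neither passed (adjusted p = 0.1 and 0.412). Of 2 trophoblast genes tested 1 rose, Tfap2c, at 7.01 and 10.6 against 80.5 and 41.4 FPKM (adjusted p = 0.0213, not robust). Tfap2a did not pass (adjusted p = 0.463). Cdx2, given above with the Wnt list, was at 10.7 FPKM in DA25 and 82.1 FPKM in DA53 and was not tested. The leukocyte marker Laptm5 was at 71.5 and 25.0 against 5.75 and 7.75 FPKM. The lineage lists had few tested members: of 4 neuroectoderm genes 2 fell robustly, Nes (13.6 and 10.1 against 1.19 and 0.756 FPKM) and Ncam1 (15.9 and 4.51 against 0.205 and 0.262 FPKM). The other 2 had the higher mean in rat and did not pass (adjusted p = 0.0591 and 0.492). They were Tubb3 (15.0 and 24.0 against 46.6 and 54.5 FPKM) and Msi1 (7.22 and 11.1 against 22.5 and 11.2 FPKM). Of 3 mesoderm genes 0 rose and 0 fell. Of 3 leukocyte genes 2 fell, with Cd68 at 23.7 and 18.3 against 1.51 and 1.29 FPKM, while Ptprc, the pan-leukocyte marker, was under 1 FPKM in every line. Of 8 extraembryonic endoderm genes 2 rose and 1 fell, and without F145 or DA25 0 rose and 1 fell. Gata6, an endoderm factor, was at 0.443 and 0.726 FPKM in mouse, 11.0 FPKM in DA25 and 1.86 FPKM in DA53. It rose, but not without F145, F146 or DA25 (adjusted p = 0.125, 0.0809 and 0.259). Dab2, an endocytic adaptor, fell from 2.79 and 4.55 to 0.735 and 0.0219 FPKM, lost without DA53 (adjusted p = 0.0891). Of 10 germ cell genes 1 rose and 2 fell, with a median of -0.92, and the falls were Prdm1 and Dnd1. Neither fall held without DA25 or DA53 (adjusted p = 0.0844 and 0.0914 for Prdm1, 0.104 and 0.183 for Dnd1). Dazl, a germ cell RNA-binding protein, was at 2.97 and 74.9 FPKM against 2.00 and 1.12 FPKM and did not pass (adjusted p = 0.07). Ddx4, a germ cell helicase, was at 1.02 and 6.01 FPKM against 44.6 and 22.2 FPKM (robust rise of 3.11 ± 0.59).

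Outside the lists, the largest robust rises among genes at 1 FPKM or more in all 4 libraries included Ahi1, a ciliary gene (1.45 and 1.92 against 48.8 and 44.4 FPKM). Bok, a Bcl-2 family gene, was at 2.63 and 3.01 against 51.0 and 73.6 FPKM, and Igfbp4, an IGF-binding protein, at 6.25 and 4.83 against 101 and 103 FPKM. The largest falls after Fbxo15 were Cd81, a tetraspanin (284 and 139 against 3.51 and 5.82 FPKM), and Ak4, a mitochondrial adenylate kinase (63.1 and 211 against 2.1 and 3.58 FPKM). All of these were robust. Atp6v0c, a subunit of the vacuolar proton pump, was at 79.0 FPKM in F145, 1.43 in F146, 382 in DA25 and 349 in DA53, and its log2 difference of 4.71 became 7.24 without F145 and 2.19 without F146.

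Genes listed at 0 in 1 species were left out of the test. There were 812 listed at 0 in both rat lines and above 0 in both mouse lines, 94 of them with a mouse mean of 10 FPKM or more, and 173 the other way, 7 of them with such a rat mean. The ribosomal protein genes Rpl7a (1364 and 1899 FPKM in mouse) and Rps9 (1239 and 1340 FPKM), which every cell uses, were listed at 0 in both rat lines, as were Slc2a3 and Nhp2. Of those at 0 in both mouse lines, Fcrla was the highest, at 356.8 FPKM in DA25 and 128.6 FPKM in DA53. A 0 in this table may therefore be a value that was not estimated, and whether rat values near 0 such as those of Cth share this was not tested.

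The position of the genes on mouse chromosomes gave a further split. Of 247 tested genes on the mouse X, 79 were higher in rat (32.0%) and 21 lower (8.5%), with a median of 0.67. On the autosomes the share of rises ran from 10.2% to 18.1%, and off the X as a whole it was 13.8%. X-linked genes named above include Araf, Pgk1, Pdha1, Pdk3, Cox7b, Ndufb11 and G6pdx. Without X-linked members, glycolysis had 6 rises of 19, pyruvate dehydrogenase and the TCA cycle 3 of 31, and the respiratory chain 0 of 54. The sex of the lines is not given in the labels, and its part in these values was not tested.

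**Figure D5:**
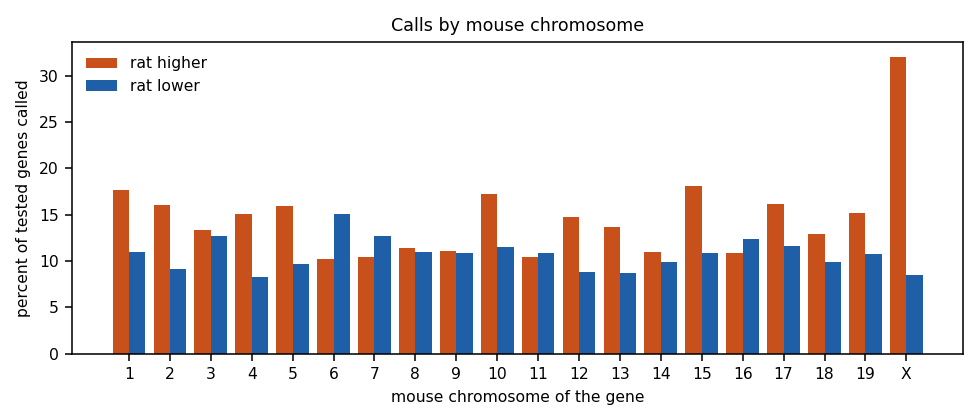
Percent of tested genes that passed the test on each mouse chromosome, orange where rat was higher and blue where rat was lower. The orange bar of the X stands at 32.0%, against at most 18.1% on any autosome.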

How the data were processed

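The authors deposited 1 table of FPKM values per homologue and library; per the submitters' processing notes reads were processed with FastQC 0.10.1, TopHat2 2.0.10 and Cufflinks 2.1.1 on mm10 and rn5. The unit is not written in the table, and how homologues were joined is not given in the sources used here. Read depth is unknown: steps between low values gave no whole reads, the commonest ratio covering 13.1% of low genes between F145 and F146 and 19.2% between DA25 and DA53. Summed FPKM ran from 312695 to 377664, with 7835 to 8725 genes at 1 FPKM or more.

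Differences, rat minus mouse, came from a linear model on log2(FPKM + 1) (limma 3.58.1, run in R 4.3.3), a scale that understates the change of low genes, over 3 groups (2 mouse, 2 rat and 4 AdESC libraries), with a trend in the prior variance and Benjamini-Hochberg adjustment over 8469 genes. Tested on simulated data over 8469 genes, the fit recovered 2 of 100 changes of 1 and 53 of 100 changes of 2 on the log2 scale, with 1 unchanged gene called. Only 200 genes were changed there, against 2125 called in the data. The adjusted p depends on the share of changed genes, so recovery at the share in the data was not measured. Mouse positions came from a RefSeq table of GRCm38.p6.

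The members and the 36 gene lists (1054 symbols, 902 in the table) were chosen with earlier results of these data known. Named genes were Lefty1, Efna1, Cdkn1a and the 3 core factors, the 12 largest rises and falls, per list up to 4 calls each way and 3 uncalled genes of highest level, their receptor or ligand partners, and up to 6 genes listed at 0 per species. Genes outside this rule were chosen after their values were seen. Alternatives were the pseudocount, the filter, upper-quartile or quantile scaling, the 4 libraries alone, no trend, a threshold of 0.01, and leaving out each library. Counts without genes on the mouse X were added after seeing the data.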

Additional observations from a re-analysis of the deposited data

How the results depend on the processing

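No call changed sign under any of the alternatives run. Of the 2125 calls (1213 rises and 912 falls), the count stayed within 1.5 times with a pseudocount of 0.1 FPKM (2175), no filter (2397), zeros kept (2456), quantile normalization (2071), upper-quartile scaling (2149), the 4 rat and mouse libraries alone (1867), no trend (2111) and, chosen after seeing the data, without genes on the mouse X (1134 rises and 891 falls). Requiring 1 FPKM or more in all 4 libraries gave 1297 calls with 420 falls, and a threshold of 0.01 gave 968, with 566 rises and 402 falls. Leaving out each library in turn gave 847 to 1879 calls, with 493 to 1131 rises and 354 to 798 falls; the lowest counts came without DA53 (847) and without DA25 (956), where 1 rat line is left. Of the 2125 calls, 1351 passed without F145, 1462 without F146, 907 without DA25 and 812 without DA53. No paired analysis was possible because the line names carry no numbers shared between mouse and rat. With 2 lines a species and no known read depth, low FPKM carry unknown counting error. Changes of 2-fold were seldom recovered on simulated data, in which fewer genes changed than were called here.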

Other observations

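Several gene families that the lists do not hold, picked by symbol after the results were seen, are given as values. Over all genes tested 14.3% were higher in rat and 10.8% lower, with a median of 0.12. Of 14 tested tubulin genes 8 were higher in rat and 0 lower, with a median log2 difference of 1.23. Among 62 mitochondrial ribosomal protein genes 9 were higher and 3 lower, with a median of 0.47. For 49 cytosolic ribosomal protein genes the counts were 9 and 2, with a median of -0.03. Over 167 solute carriers 34 were higher and 17 lower, with a median of 0.28. The 34 proteasome subunits had 3 rises and 1 fall, with a median of 0.18. Of 9 annexins 1 rose and 3 fell, with a median of -0.83. Among 125 zinc finger genes 13 rose and 10 fell, with a median of 0.15. For 19 Hsp genes the counts were 3 and 2 (median 0.20), and for 16 dual-specificity phosphatases 5 and 2 (median 0.44).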
